A study of Mus musculus with 2 samples.

Results

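Foxp3-positive cells were 207 of the 1304 non-cycling cells of the spleen, or 15.9% (exact binomial 95% interval 13.9 to 18.0), in a single cell RNA sequencing library of splenic CD4+ T cells sorted for an IL-10 reporter. A cell was a member if under 6% of its UMIs (unique molecular identifiers, 1 per captured transcript) came from mitochondrial genes, if it had at least 1 UMI of *Foxp3*, and if *Mki67*, *Top2a*, *Birc5*, *Cdk1* and *2810417H13Rik* together had fewer than 5. The other 1097 cells that met the mitochondrial and cycling limits and had no *Foxp3* UMI were the comparison. The series held 3212 cell barcodes, 1738 from spleen and 1474 from small intestine, with 1 library per tissue, so tissue and library cannot be told apart and the spread between animals is not known. The mice carried an eGFP reporter of IL-10 and an mRFP reporter of Foxp3. The study's mice were littermates aged 8 to 16 weeks, and no untreated animals were part of these libraries. In the study's anti-CD3 protocol, 15 µg of antibody clone 2C11 was given intraperitoneally on day 0 and day 2, and tissue was taken 4 h after the last dose. The number of mice pooled into a library was not given in the sources used here. Cells were sorted as CD4+ and eGFP+, with the Foxp3-expressing ones kept in the sort.

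Foxp3 is the transcription factor that defines regulatory T cells (Treg), which restrain other immune cells. These cells make little IL-2 themselves and depend on IL-2 from their neighbours, which they bind through a receptor whose alpha chain, CD25, is encoded by *Il2ra*. The signal passes through STAT5, which also drives feedback genes of the SOCS family. IL-10 is made by some Treg and by Foxp3-negative T cells of the TR1 type, and the sort placed both kinds side by side.

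*Foxp3* (ENSMUSG00000039521, chrX:7573644-7595245 on GRCm38, the build used for all positions here) gave 336 UMIs in the members. The members held 1 UMI of it in 114 cells, 2 in 68, 3 in 17, 4 in 5 and 5 in 3. These counts chose the cells and are given as a description. The member closest to the mitochondrial limit had 5.13% and the nearest cell outside had 6.53%, with 7 otherwise fitting cells left out. At the cycling limit, 9 cells with 4 UMIs of the cycling genes stood inside and 10 with 5 stood outside, and 128 members had 0. The members were sequenced more deeply than the comparison cells, at 6416 UMIs and 2125 genes in the median cell against 4736 and 1698. With random thinning of each cell to 2000 UMIs, 6.89% (5.56 to 8.41) of non-cycling splenic cells still had a *Foxp3* UMI, so the share depends on depth. As a measure of stray RNA in the intestinal library, 1 of 121 intestinal cells with both *Cd8a* and *Cd8b1* UMIs had a *Foxp3* UMI (0.826%, 0.0209 to 4.52, median depth 4220 UMIs), and 0 of 119 did after thinning. In that library only 2.05% of non-cycling cells had a *Foxp3* UMI, so the value cannot measure stray *Foxp3* RNA in the spleen.

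The Foxp3 reporter went with the label. An mRFP UMI was present in 37 of 207 members, or 17.9% (12.9 to 23.8), and in 28 of 1097 comparison cells, or 2.55% (1.70 to 3.67). At 2000 UMIs per cell the shares were 5.34% (2.70 to 9.35) and 0.840% (0.385 to 1.59). By number of *Foxp3* UMIs, mRFP was found in 16.7% of cells with 1, 14.7% with 2 and 32.0% (14.9 to 53.5) with 3 or more, and these intervals overlap. The reporter is read from the *Foxp3* locus and is not a separate gene. Of the IL-10 reporter, 8 eGFP UMIs were found in all splenic cells, too few for any comparison.

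Across genes, the members differed from the comparison cells in few places. Levels are given in CPM, a gene's summed UMIs in a group of cells per 1000000 UMIs of that group, and ratios are on the log2 scale, positive where members were higher. Of 4023 genes with at least 200 UMIs, 3.33% (134 genes) were at least 1.5-fold higher in members and 4.23% (170 genes) at least 1.5-fold lower, while 92.4% lay between and the median ratio was 0.04. There is no replicate library, so no test was made, and the 95% intervals cover counting error only. At 2-fold, 28 genes were higher and 46 lower.

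The 12 genes highest in members were *Socs2*, *Ankrd55*, *Tnfrsf9*, *Mt1*, *Bmyc*, *Capg*, *Ccr2*, *Fam129a*, *Il2ra*, *Snx9*, *Ccr8* and *Itgb8*. *Socs2* (chr10:95385362-95417180), a feedback inhibitor of cytokine signalling, had 176 CPM (155 to 199.97) in members and 44.6 (39.2 to 50.4) in the comparison, a ratio of 1.99 (1.73 to 2.24). *Capg*, an actin-capping protein, had 621 against 207 CPM (1.58, 1.45 to 1.71). *Ccr2* and *Ccr8*, both chemokine receptors, had ratios of 1.57 and 1.33, and *Itgb8*, an integrin chain that activates latent TGF-beta, had 1.33 (0.90 to 1.75). *Mt1*, a metallothionein that binds zinc, had 196 against 57.7 CPM (1.76), from 40 members or 19.3% of them.

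The 12 lowest were *Spp1*, *Gzmk*, *Dapl1*, *Lpar3*, *Il12rb2*, *Tnfsf8*, *Ifng*, *Ccl5*, *Ehd3*, *Tcf7*, *Il21* and *Tbc1d4*. *Ccl5*, a chemokine, had 579 CPM (540 to 620.3) in members and 4009 (3957 to 4061) in the comparison, a ratio of -2.79 (-2.89 to -2.69). *Tnfsf8*, which encodes CD30 ligand, had 49.5 against 364 CPM (-2.88), and *Tcf7*, a factor of naive, memory and follicular T cells, had 32.3 against 196 CPM (-2.60). *Gzmk* and *Spp1* had only 3 and 2 UMIs in members against 245 and 199, so their ratios of -4.32 (-6.61 to -2.76) and -4.60 (-7.66 to -2.73) are loosely bounded. *Spp1* lies below the floor of 3 UMIs, so its exact ratio and rank are not read, only that its interval ends at -2.73. Of the low genes, *Ccl5* differs most with the make-up of the comparison. Against the 907 Foxp3-negative cells with fewer than 5 *Ccl5* UMIs, a group chosen for being low, its ratio was 2.75, and with such a limit on both groups it was -0.31 (-0.67 to 0.03).

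**Figure D1:**
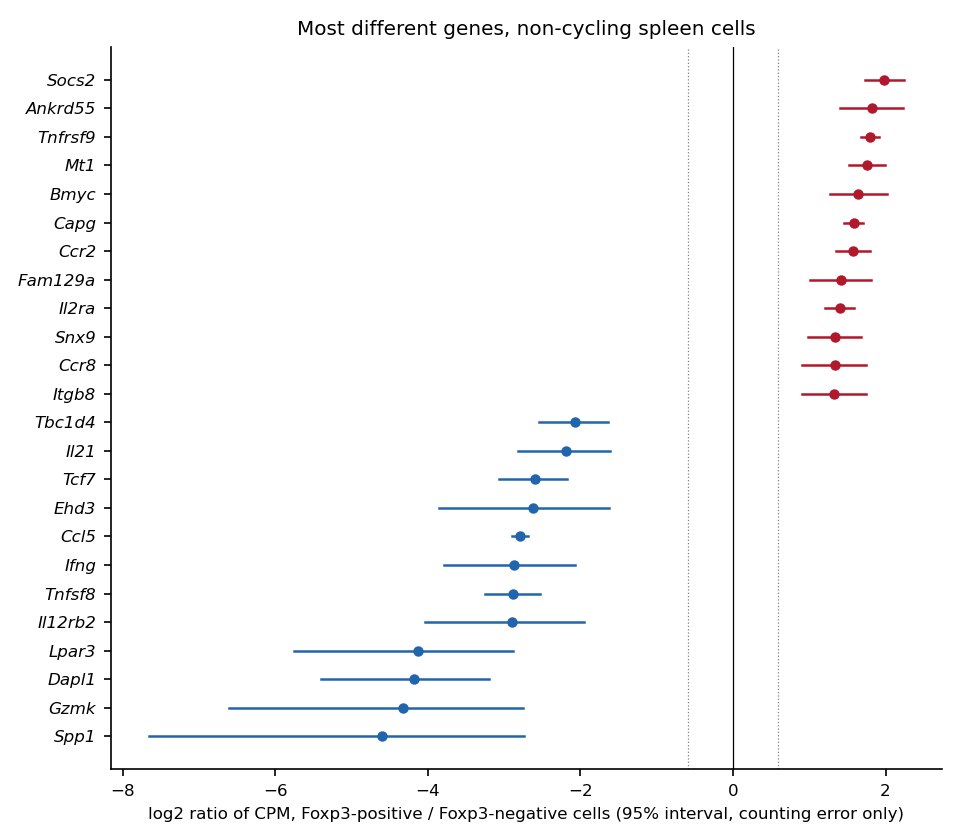
Log2 ratio of CPM between the 207 Foxp3-positive and the 1097 Foxp3-negative non-cycling cells of the spleen (x axis) for the 12 highest (red) and 12 lowest (blue) genes with at least 200 UMIs; lines are exact 95% intervals for counting error and dotted lines mark 1.5-fold. The higher genes lie between 1.33 and 1.99 and the lower ones between -4.60 and -2.07, with the widest intervals for genes with few UMIs in members.

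All 3 of the further Treg markers were higher in members. *Ikzf2* (chr1:69531214-69687245), which encodes the Treg transcription factor Helios, had 439 CPM (405 to 475) against 197 (186 to 209), a ratio of 1.16 (1.01 to 1.30). *Il2ra* (chr2:11642807-11693193) had 281 (254 to 310.5) against 107 (98.3 to 115), a ratio of 1.40 (1.21 to 1.58). *Tnfrsf9* (chr4:150914562-150946102), the costimulatory receptor 4-1BB, had 740.3 (696 to 787) against 213 (201 to 225), a ratio of 1.80 (1.68 to 1.92). Cell by cell the same held at equal depth, with a *Tnfrsf9* UMI in 55.3% of members (48.3 to 62.3) and 19.0% of comparison cells (16.7 to 21.5), *Ikzf2* in 47.6% and 25.6%, and *Il2ra* in 37.4% and 14.3%. Unthinned, the shares were 72.9% against 31.2%, 72.9% against 39.8% and 70.0% against 28.6%. The members still varied widely, from 0 to 29 *Tnfrsf9* UMIs (median 3), 0 to 16 of *Ikzf2* (median 2) and 0 to 9 of *Il2ra* (median 1).

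Among 26 listed Treg surface molecules, 16 had enough UMIs, and of these 9 were at least 1.5-fold higher and 0 lower, with a median ratio of 0.71 against 0.04 over all genes tested. *Ctla4* (chr1:60887000-60915832), which takes CD80 and CD86 off antigen-presenting cells, had 2028 CPM (1954 to 2104) against 1106 (1078 to 1133), a ratio of 0.88. *Tnfrsf4* (OX40) and *Tnfrsf18* (GITR) had 0.64 and 0.78, while *Icos* had 0.01 (-0.09 to 0.11), *Nt5e* (CD73) 0.20 and *Nrp1* 0.03 (-0.43 to 0.46). Below the limit of 200 UMIs, *Lrrc32*, whose product GARP holds TGF-beta on the Treg surface, had 59 UMIs in members and 39 in the comparison, or 42.3 CPM (32.2 to 54.6) against 6.84 (4.86 to 9.35). *Gpr83*, a receptor known from Treg, had 32.3 against 7.37 CPM. *Entpd1* (CD39) had 28 against 103 UMIs, a ratio of 0.15, and *Klrg1* 27 against 30, a ratio of 1.88.

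Of 6 TNF receptors tested, 4 were higher (*Tnfrsf9*, *Tnfrsf1b*, *Tnfrsf18*, *Tnfrsf4*) and 1 lower. *Tnfrsf1b*, the TNF receptor type found on many Treg, had a ratio of 1.08, *Cd27* had 0.29, and the death receptor *Fas* had -0.73. With no cycling limit *Tnfrsf4* and *Tnfrsf18* fell to 0.49 and 0.54, below 1.5-fold. These receptors signal through NF-kB. Of 19 tested genes of the NF-kB pathway, 0 passed 1.5-fold in either direction, with ratios from -0.51 (*Traf5*) to 0.40 (*Birc3*) and a median of -0.13.

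Of 14 tested genes of the IL-2 and STAT5 axis, 5 were higher and 0 lower, and their median ratio was -0.04. The 5 were the receptor chains *Il2ra* and *Il2rb* (0.81), *Il7r* (0.61, 213 against 140.0 CPM), and the feedback genes *Socs2* and *Cish* (1.28, 0.85 to 1.70). *Pim1*, a kinase induced by STAT5, had 0.48. The common receptor chain *Il2rg* had -0.11, the kinases *Jak1* and *Jak3* -0.22 and -0.26, and *Stat5a* and *Stat5b* -0.19 and -0.35. *Socs1* and *Socs3* had -0.12 and -0.35, so neither the receptor chains nor the feedback genes moved as a whole. The call of *Il7r* is at the edge, and its ratio fell to 0.27 with no cycling limit. *Il2* itself had 13 UMIs in members and 61 in the comparison, a ratio of -0.20.

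STAT5 binds DNA at the spaced palindrome TTCNNNGAA, which reads the same on both strands. Promoter windows from RefSeq (GRCm38.p6), 250 bases before to 50 after a start site, were held for 14 of the 16 listed genes of the axis, and 3 of these genes had these letters, *Cish*, *Il7r* and *Socs3*. Of 32851 windows of the same length, 8.30% had them. A gene counted if any of its windows matched, and *Stat5a*, *Stat5b* and *Pim1* had more than 1 window each. The count of genes and the share of windows are therefore in unlike units. The windows of *Cish*, with 2 matches just after its start, and of *Il7r*, with 1, are shown because both genes were higher in members, *Il7r* only just past the limit; the matching letters are in capitals. The *Cish* window is chr9:107296409-107296708, plus strand, and that of *Il7r* is chr15:9529827-9530126, minus strand. A match is a description of the sequence and not a site of binding, and these RNA counts do not measure binding.
Cish: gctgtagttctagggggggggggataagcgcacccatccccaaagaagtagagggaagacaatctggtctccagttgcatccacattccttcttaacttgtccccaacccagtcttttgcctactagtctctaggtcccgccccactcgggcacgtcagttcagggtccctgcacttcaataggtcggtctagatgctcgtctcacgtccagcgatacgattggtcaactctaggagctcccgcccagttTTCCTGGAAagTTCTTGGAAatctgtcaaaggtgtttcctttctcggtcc
Il7r: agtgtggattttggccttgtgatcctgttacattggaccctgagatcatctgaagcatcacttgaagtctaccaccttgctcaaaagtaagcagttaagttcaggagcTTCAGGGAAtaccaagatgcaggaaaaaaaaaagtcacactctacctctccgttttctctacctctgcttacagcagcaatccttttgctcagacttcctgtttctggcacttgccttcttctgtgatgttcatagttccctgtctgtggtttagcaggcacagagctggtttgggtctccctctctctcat

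Of 17 listed suppressive mediators, 10 were tested, 5 were higher and 0 lower, with a median ratio of 0.45. *Il10* (chr1:131019845-131024974), on whose reporter all cells were sorted, had 637 CPM (596 to 680.4) against 414 (397 to 431), a ratio of 0.62, with a UMI in 61.2% of members and 38.2% of comparison cells at equal depth. *Gzmb*, a granzyme that Treg can use to kill target cells, had 1764 CPM (1695 to 1835) against 862 (838 to 887), a ratio of 1.03. Its RNA was uneven, since 21 of the 207 members held 66.1% of its UMIs and 46.9% had none. The other mediators that were higher were *Itgb8*, *Ctla4*, *Il10* and *Pdcd1lg2* (0.78). *Gzmb* was the 1 cytotoxic granule gene of 10 tested that was higher, against 4 lower (*Nkg7*, *Gzma*, *Ctsw*, *Gzmk*). Against the 907 comparison cells with few *Ccl5* UMIs *Nkg7* had 0.19 and *Gzma* -0.47, no longer past the limit. *Ctsw* and *Gzmk* had -1.14 and -3.61 there from too few UMIs to be counted. With *Ccl5*-high cells left out of both groups, *Nkg7* was slightly lower in members, at 590 against 673 CPM. The ratio of *Tgfb1* was 0.09 (-0.12 to 0.29). Some of these calls depend on the cells chosen. The ratio of *Il10* fell below the 1.5-fold limit to 0.41 without cells bearing a marker of another cell type. That of *Gzmb* fell below it to 0.48 with no cycling limit and rose to 2.08 without *Ccl5*-high comparison cells. With such cells left out of both groups the *Gzmb* ratio was 1.74 (1.64 to 1.83). Against the *Ccl5*-high Foxp3-negative cells described further on, 0 of 6 tested mediators were higher and 2 were lower. *Lag3*, a coinhibitory receptor, had 920.4 CPM (871 to 972) against 1284 (1255 to 1314), a ratio of -0.48. Of 10 tested genes of the coinhibitory list 1 was higher, *Ctla4*, and 1 lower, *Pdcd1*. Against the 907 comparison cells with few *Ccl5* UMIs 3 of 8 were higher and 0 lower. Over all 3649 genes tested against those cells, 3.34% were higher and 3.51% lower. *Lilrb4a* had 1.34 there and 0.46 against all comparison cells. *Pdcd1* (PD-1) had -0.75 (-0.38 against those 907 cells), *Havcr2* (TIM-3) 0.04 from 49 UMIs in members, and *Tigit* -0.10.

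Few transcription factors followed the surface pattern. Of 18 Treg transcription factors tested, 1 was higher, *Ikzf2*, and 4 were lower, *Nfatc1* (-0.63), *Lef1* (-0.66), *Klf2* (-1.27) and *Tcf7*. *Prdm1*, which encodes Blimp-1, had 0.54, *Satb1* -0.31, *Batf* -0.11 and *Foxp1* -0.47. *Ikzf4* (Eos), below the UMI limit, had 25 against 41 UMIs and a ratio of 1.32. *Bach2*, also below it, had 11 against 133 and -1.56. *Maf*, a factor for *Il10*, had -0.15 (-0.26 to -0.04) and *Id2* -0.22. Of 15 other lineage factors *Ikzf3* and *Nfil3* were higher (both 0.73), and *Ikzf1*, *Stat4* and *Bhlhe40* were lower, at -0.60, -0.78 and -0.98.

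Genes of helper, follicular and naive cells were lower in members. Of 11 follicular helper (Tfh) genes tested, 8 were lower and 0 higher, among them *Il21* (18.7 against 84.7 CPM), *Tbc1d4* (32.3 against 136) and *Tox2* (-1.81). *Izumo1r*, the folate receptor of both Treg and Tfh, had 0.44. Of 11 naive and recirculation genes, 6 were lower, including *Dapl1* (-4.18), *Ccr7* (-1.02) and *S1pr1* (-1.32), and 1 was higher, *Il7r*. Of 13 genes of the T cell receptor response, 5 were lower, among them *Fos* (-0.88) and *Cd69* (-0.79), and 0 higher, while *Nr4a1* had 0.33. Both helper cytokines tested, *Ifng* and *Il21*, were lower. *Il4* and *Il17f* had 0 UMIs in members, where a total of 3 UMIs would be 2.15 CPM, against 84 and 43 in the comparison. Of 3 chemokine ligands tested all were lower, with *Ccl3* and *Ccl4*, near copies of each other whose reads may be hard to assign, at -1.52 and -1.10. Against the 907 comparison cells chosen for few *Ccl5* UMIs, neither *Ccl3* nor *Ccl4* was lower, with ratios of 0.59 (0.14 to 1.02) and 0.41 (0.27 to 0.55), so these lower values rest on the *Ccl5*-high comparison cells.

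Of 19 interferon-stimulated genes, 8 were higher and 0 lower, with a median ratio of 0.48. The highest were *Isg20* (1.05), *Iigp1* (0.90) and *Igtp* (0.75), the last an immunity-related GTPase, while *Isg15* had 0.22. In the list of S100 and galectin genes, *Vim* had 1.28 and *S100a10* 0.60, and *Lgals3* was lower at -0.89, of 13 tested. Of 16 homing receptors, 2 were higher, *Ccr2* and *Ccr8*, and 6 lower, with *Cxcr6* at -1.05 (-0.36 against the 907 cells with few *Ccl5* UMIs), *Itgb1* at -1.03 and *Cxcr3* at -0.02. Of 10 BCL2 family genes 0 were higher and 1 lower, *Bcl2a1d* (-0.59), and of 15 glycolysis genes 1 was higher, *Slc16a3* (0.95).

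**Figure D2:**
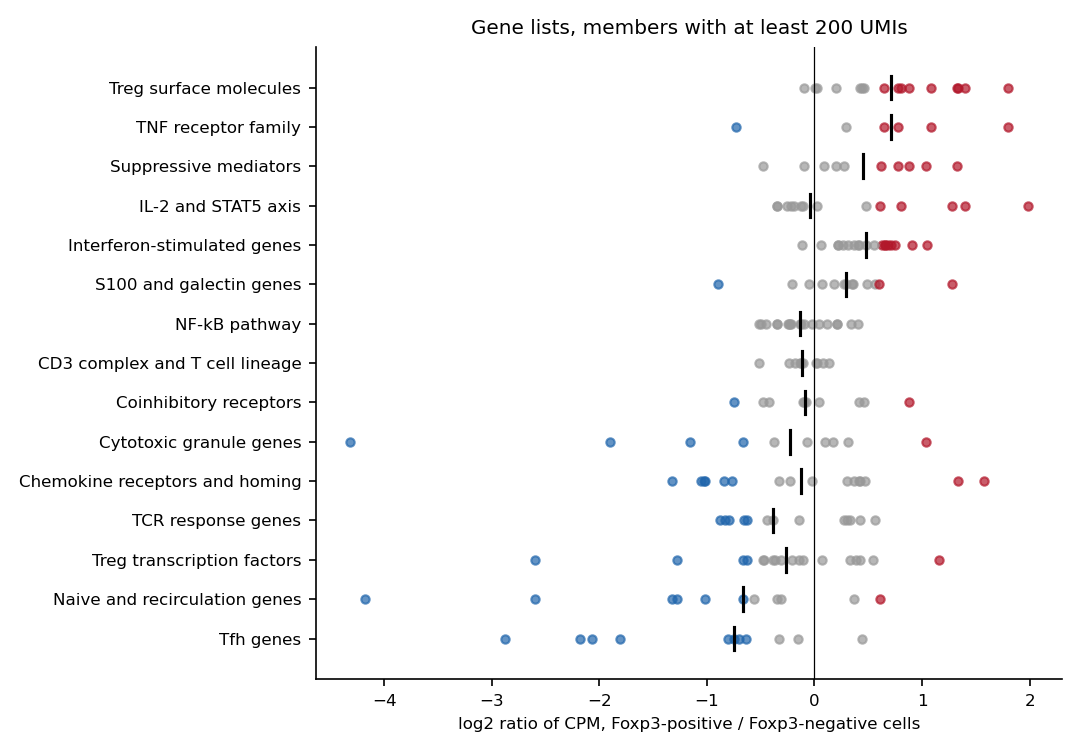
Each dot is the log2 ratio of CPM (x axis) of 1 gene with at least 200 UMIs, by gene list (y axis), between Foxp3-positive and Foxp3-negative non-cycling splenic cells; red and blue dots lie past 1.5-fold and black ticks are list medians. Treg surface molecules have the most red dots (9 of 16) and Tfh genes the most blue ones (8 of 11), while all 19 NF-kB genes stay between the limits.

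Markers of other cell types were looked for in both groups. T cell markers were found in all 207 members (100%) and in 99.9% of the comparison cells, and the 10 CD3 complex and lineage genes tested had ratios between -0.51 (*Cd4*) and 0.13 (*Cd6*). Of 4 B cell markers, 3 were at 0 and *Cd79b* had 14 UMIs in members and 21 in the comparison, or 10.0 against 3.68 CPM for the list. A wider list of B cell genes, 8 of them in the files, had 104 against 119 UMIs, or 74.6 against 20.9 CPM. Most of it was *Cd74*, the MHC class II invariant chain, with 76 UMIs in members and 65 in the comparison (54.5 against 11.4 CPM). Of CD8 markers, *Cd8a* was at 0 in both groups and *Cd8b1* had 28 and 75 UMIs, 20.1 against 13.2 CPM. NK cell markers had 2.15 against 16.3 CPM, with 3 of 4 at 0 in members and *Klrd1* the most abundant. The myeloid list had 179 against 157 CPM, nearly all of it *Cst3* (244 of 249 UMIs in members), which T cells also express, with *Csf1r* at 0 and *Lyz2* at 3 UMIs. Plasma cell markers had 2.15 against 1.58 CPM (*Jchain* most abundant, 1 of 3 at 0 in members), and red cell or platelet markers 0.717 against 0.351 (1 UMI of *Hbb-bs*, 3 of 4 at 0). The part of these UMIs in the differences above was not tested, beyond leaving out every cell with any of them, which took away most cells because of *Cst3*; with the 56 members that remained, the ratios were 1.10 for *Ikzf2*, 1.46 for *Il2ra* and 1.56 for *Tnfrsf9*.

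The study set cells rich in *Ccl5* apart as TR1-like, and 190 Foxp3-negative non-cycling cells had at least 5 *Ccl5* UMIs. Against these, 6.57% of 1674 genes were at least 1.5-fold higher in members and 5.32% lower. *Socs2* (176 against 42.2 CPM), *Il2ra* (281 against 70.0) and *Capg* (621 against 179) were among the highest genes, and *Ikzf2* had a ratio of 1.28 (1.03 to 1.53). *Ifng* (-4.44), *Ccl3* (-3.77), *Ccl4* (-3.16), *Gzma* (-2.67), *Cxcr6* (-2.56) and *Nkg7* (-2.34) led the lower ones. Of 5 coinhibitory receptors tested in this comparison 4 were lower, with *Pdcd1* at -1.81 (-2.12 to -1.52) and *Lag3* at -0.88 (-0.99 to -0.78). *Havcr2* had 35.2 against 119 CPM (-1.77). Over all 207 members *Gzmb* was at 1764 CPM. This lay between 3032 (2923 to 3143) in the *Ccl5*-high cells and 417 (399 to 436) in the other 907 Foxp3-negative cells. Of these groups *Il10* was highest in members, at 637 CPM against 520.2 (476 to 568) and 392 (375 to 410.4). At least 5 *Ccl5* UMIs were found in 23 members, or 11.1% (7.18 to 16.2), and in 17.3% of the comparison cells (15.1 to 19.7), and these intervals overlap. The cells past this limit were unlike, with 4351 CPM of *Ccl5* (4039 to 4680) in the 23 members and 23126 (22825 to 23431) in the 190 others. The orders of *Gzmb* and *Il10* given above depended on which members were taken. The 23 members had 350 CPM of *Il10* (265 to 452), below the 190 others. Their *Gzmb*, at 4526 CPM (4208 to 4861), was above that of the 190 others. The 184 members under the limit kept both orders, with 676 CPM of *Il10* (631 to 723) and 1391 of *Gzmb* (1326 to 1458). The limit is a count in cells of unequal depth. At 2000 UMIs per cell, 22.3% of members (16.8 to 28.6) and 30.6% of comparison cells (27.8 to 33.5) had any *Ccl5* UMI.

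**Figure D3:**
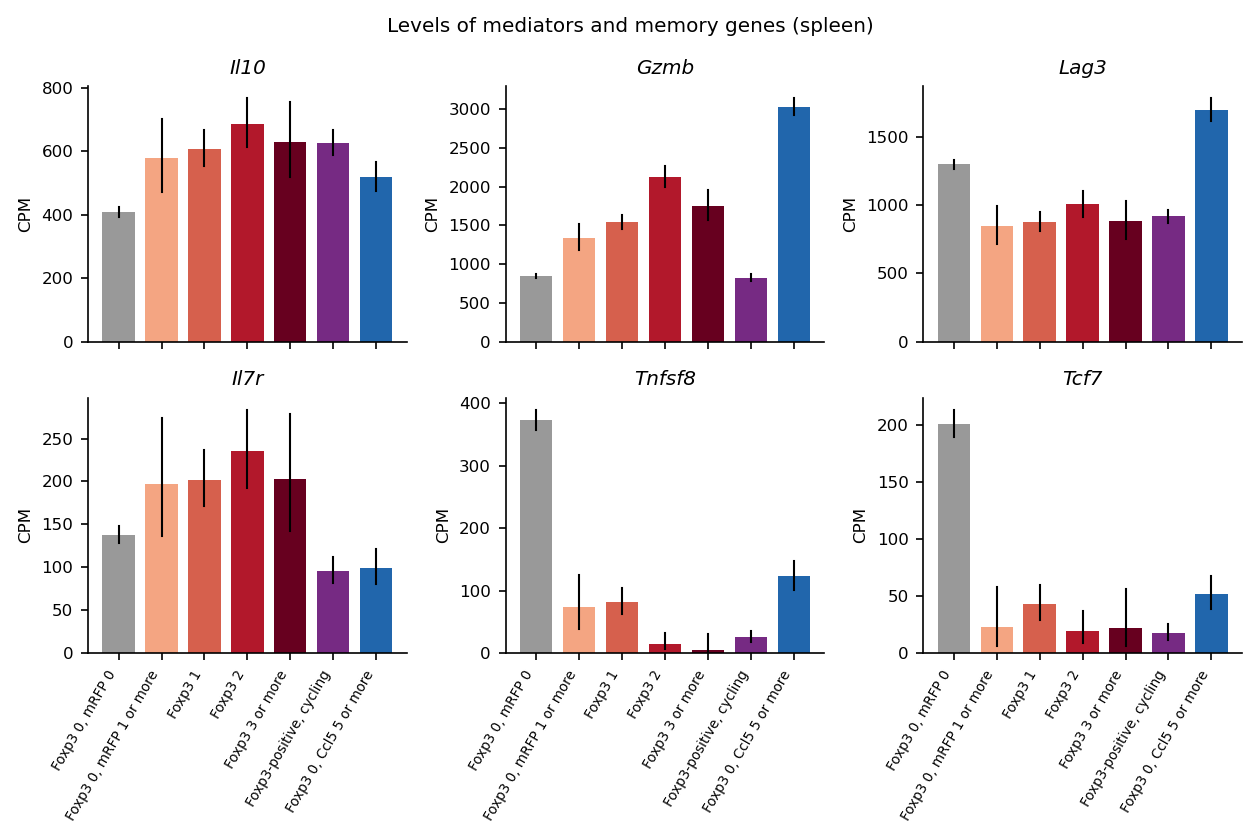
Level in CPM (y axis, from 0) of 6 genes in 7 groups of splenic cells by UMIs of Foxp3, mRFP and Ccl5 or by cycling; bars are summed UMIs over a group's cells and black lines exact 95% intervals for counting error. Of these 7 groups, *Gzmb* and *Lag3* are highest in the *Ccl5*-high Foxp3-negative cells (3032 and 1700 CPM). *Tnfsf8* and *Tcf7* are highest in cells with neither a Foxp3 nor an mRFP UMI (373 and 201 CPM).

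Within the members, *Tnfrsf9* went with the number of *Foxp3* UMIs, at 621 CPM (566 to 680.3) in cells with 1, 827 (746 to 914) with 2 and 1013 (872 to 1170) with 3 or more. *Il2ra* did not, at 261, 309 and 296 CPM, nor *Ctla4*, at 2175, 1786 and 2031. Between cells with 2 or more and cells with 1 *Foxp3* UMI, 1 of 983 genes was at least 1.5-fold higher (0.102%), *Isg15*, and 2 were lower (0.203%), *Ccl5* (268 against 845 CPM) and *Ccl4* (173 against 631). Nearly all *Ccl5* UMIs came from few cells, with 88.2% of them in 21 members, so its value rests on those. The median depth of the 3 groups was 6176.5, 6509 and 7254 UMIs, and the part of depth in these differences was not tested.

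**Figure D4:**
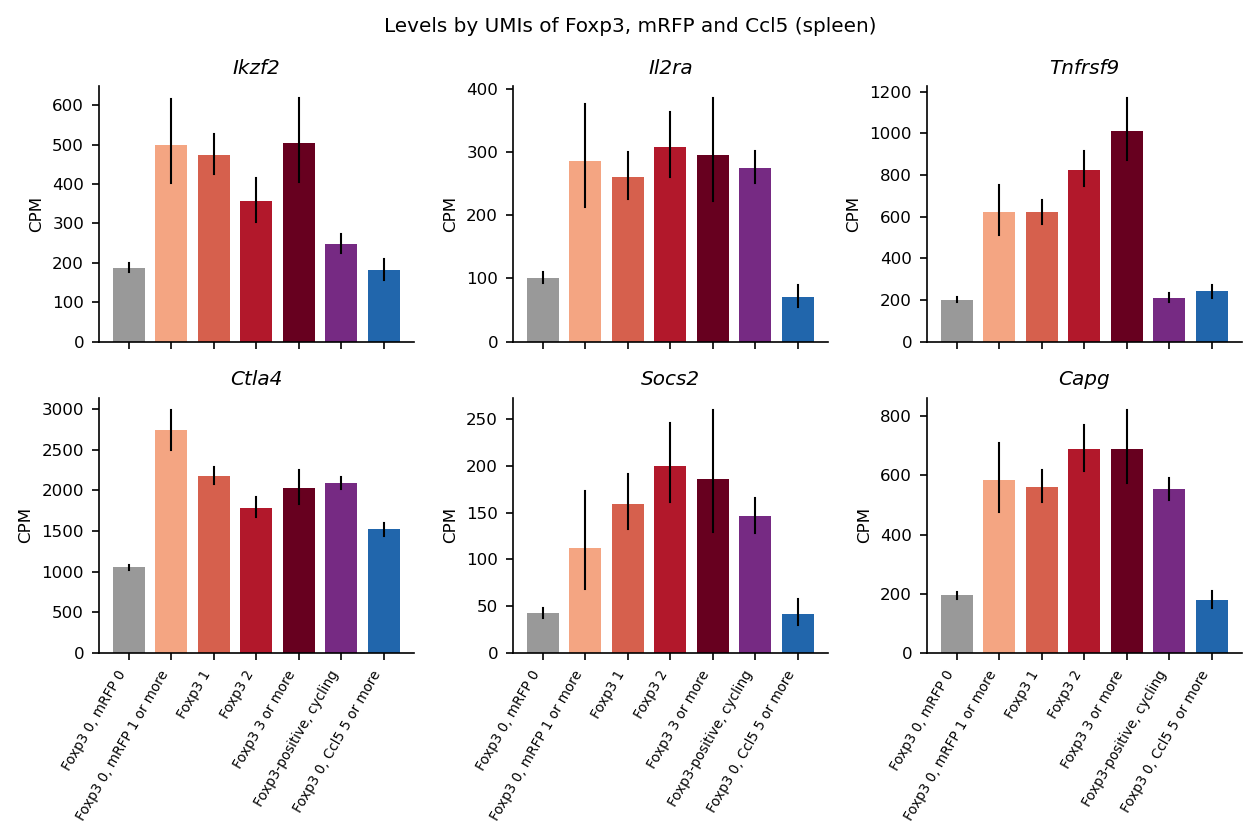
Level in CPM (y axis, from 0) of 6 genes in the same 7 groups of splenic cells, with exact 95% intervals for counting error as black lines. *Tnfrsf9* runs from 621 to 1013 CPM with the number of *Foxp3* UMIs and is at 210 CPM in cycling Foxp3-positive cells, while *Il2ra* stays between 261 and 309 CPM in non-cycling Foxp3-positive cells and at 276 in cycling ones.

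Helios is often used to mark Treg from the thymus, and *Ikzf2*, which encodes it, had a UMI in 72.9% of members as deposited. To compare members at equal depth they were divided after thinning to 2000 UMIs, when 98 had an *Ikzf2* UMI and 108 did not, at median depths of 6452 and 6412. The 108 still held 114 *Ikzf2* UMIs at full depth (153 against 768 CPM), so they are low in it rather than negative. Of 982 genes, 1.02% (10 genes) were at least 1.5-fold higher with *Ikzf2* and 0.102% (1 gene, *Furin*, 89.4 against 223 CPM) lower. *Ccl5* led the higher genes (933 against 272 CPM, ratio 1.78), though 23 of the 207 members held 722 of its 807 UMIs and 60.4% had none. Then came *Mt1* (1.17), *Sv2c* (0.96), *Ccr2* (0.93, 274 against 144 CPM) and *Ccl4* (0.92), with *S100a4* at 0.62. *Ccl4* turned round when members with at least 2 *Ikzf2* UMIs were set against those with 0 as deposited, at 398 against 574 CPM (-0.53, -0.79 to -0.27), and *S100a4* then had 0.22 (-0.06 to 0.51), while *Ccl5* had 774 against 96.6 CPM and the ratios of *Ccr2* and *Mt1* were 0.98 and 0.85. *Areg*, which encodes the repair factor amphiregulin, was below the UMI limit and had 64 UMIs against 9, or 98.7 against 12.1 CPM. Other Treg genes had smaller ratios. *Il2ra* had 267 against 295 CPM (-0.14, -0.44 to 0.15), *Il10* 672 against 608 (0.15, -0.05 to 0.34), *Ctla4* 0.33, *Gzmb* 0.48 and *Tnfrsf9* 0.51 (0.33 to 0.69). With at least 2 against 0 *Ikzf2* UMIs, *Tnfrsf9* and *Gzmb* passed 1.5-fold, at 0.70 (0.46 to 0.94) and 0.61 (0.45 to 0.77), while *Ctla4* had 0.14. Those groups, of 115 and 56 cells, were not at equal depth, with medians of 7092 and 5827.5 UMIs. The part of depth in their differences was not tested.

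Graph clusters of all 1304 non-cycling cells, made without *Foxp3*, mRFP, the cycling and the mitochondrial genes, gathered most members. Cluster 2 of 11, led by *Socs2*, *Ankrd55*, *Iigp1*, *Itgb8* and *Ube2l6*, had 184 cells, of which 100 were members (54.3%, 46.9 to 61.7), or 48.3% of all members. Cluster 7, led by *Mt1*, *Tnfrsf9*, *Bmyc*, *Ccr8* and *Fabp5*, had 113 cells, of which 61 were members (54.0%, 44.4 to 63.4), or 29.5% of all. At equal depth the shares were 23.8% (17.8 to 30.6) and 17.9% (11.3 to 26.2). The next highest was cluster 8, led by *Txnip*, *Il7r*, *Bcl2*, *Izumo4* and *Tsc22d3*, with 14.4% as deposited (8.12 to 23) and 10.2% at equal depth. Cluster 6, led by *Ccl5*, *Ccl3*, *Ccl4*, *Csf1* and *Serpina3f*, had 0 of 113, where the exact interval reaches 3.21%, at a median of 4418 UMIs per cell. Clusters 2 and 7 differ in depth as well, with medians of 5762 and 7395 UMIs. They are left without a cell type name, since 1 of the 4 Treg markers is among the top 10 genes of each.

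The members of the *Mt1*-led cluster had 1238 CPM of *Tnfrsf9* (1141 to 1340) and those of the *Socs2*-led cluster 532 (478 to 591), while *Il2ra* was alike in both, at 316 (268 to 370) and 308 (267 to 354). *Gzmb* was at 2410 and 1539 CPM, and *Socs2* at 108 and 239. Since the cells were clustered on these genes, the differences describe the clusters. Cells without a *Foxp3* UMI in the same clusters were near the members in some genes and apart in others. In cluster 2 the intervals overlapped for *Il2ra* (314 against 308 CPM), *Tnfrsf9* (453 against 532) and *Ccr2* (171 against 219). There the cells without *Foxp3* had less *Gzmb* (985 against 1539) and *Capg* (536 against 694), and more *Ikzf2* (502, 441 to 568, against 384, 339 to 435), *Ctla4* (2222 against 1899) and *Il10* (864 against 693). In cluster 7 the intervals overlapped for *Il2ra* (289 against 316 CPM), *Gzmb* (2313 against 2410), *Capg* (567 against 565), *Ctla4* (2521 against 2304), *Il10* (538 against 646) and *Ccr2* (179 against 222). There *Tnfrsf9* (955 against 1238) and *Ikzf2* (414, 349 to 488, against 555, 491 to 625) were lower without *Foxp3*.

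**Figure D5:**
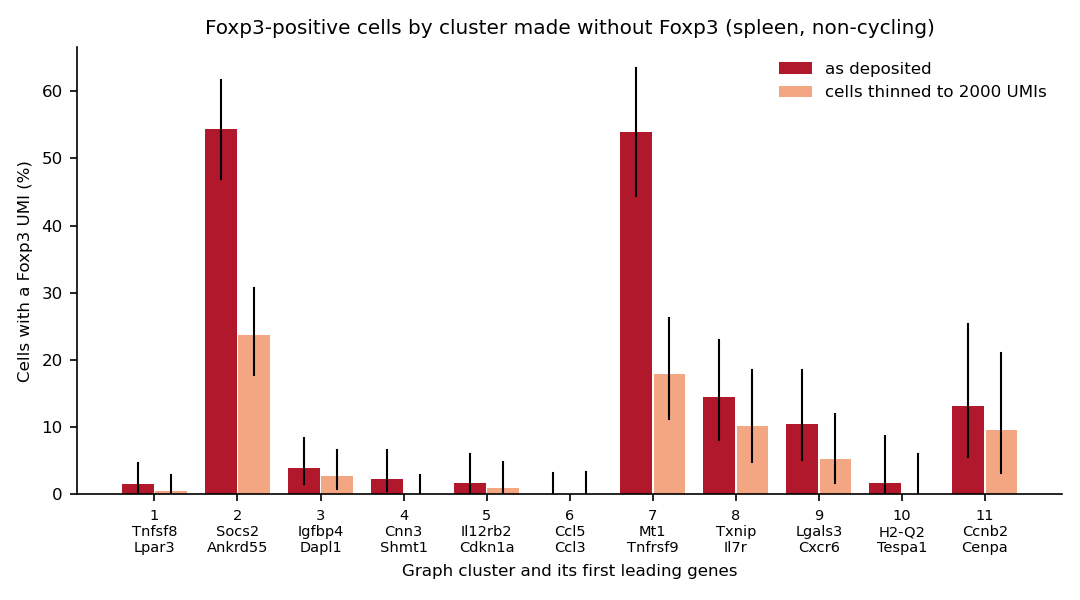
Share of cells with a Foxp3 UMI (y axis, percent) in each of 11 graph clusters of non-cycling splenic cells (x axis, with the first leading genes), as deposited and with every cell thinned to 2000 UMIs; black lines are exact 95% binomial intervals. Clusters 2 and 7 stand at 54.3% and 54.0% as deposited and 23.8% and 17.9% at equal depth, above the other 9 clusters, which range from 0 to 14.4% as deposited.

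A transcript outside the member rule, though read from the *Foxp3* locus, chose the 28 non-cycling cells with an mRFP UMI but no *Foxp3* UMI. Their levels were 500.02 CPM of *Ikzf2* (402 to 615), 287 of *Il2ra* (213 to 377), 624 of *Tnfrsf9* (513 to 751) and 584 of *Capg* (477 to 708), each interval overlapping that of the members. *Ctla4* was higher than in members, at 2736 CPM (2498 to 2990), and *Ccl5* lower, at 152 (99.97 to 221). *Gzmb* (1343, 1178 to 1524) and *Nkg7* (556, 452 to 677, against 769, 724 to 816) were also lower, and *Gzma* was higher, at 449 CPM from 80 UMIs against 29.4 from 41. The 1069 cells with neither transcript had 187 CPM of *Ikzf2*, 101 of *Il2ra* and 200 of *Tnfrsf9*. With the 28 left out of the comparison, the ratio of *Ctla4* was 0.95.

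A further 137 Foxp3-positive cells were cycling, 36.3% (31.5 to 41.4) of 377 cycling cells, and 39.8% (34.6 to 45.2) of all Foxp3-positive splenic cells cycled against 18.0% (15.9 to 20.1) of Foxp3-negative ones. At equal depth 13% (9.77 to 16.8) of cycling and 6.89% (5.56 to 8.41) of non-cycling cells had a *Foxp3* UMI, with the cycling call as deposited. Cycling cells were deeper, at medians of 11485 UMIs with *Foxp3* and 8967.5 without, against 6416 and 4736 in non-cycling ones. Both calls are counts that rise with depth, and the part of depth in the shares that cycled was not tested. Compared with cycling Foxp3-positive cells, 5.0% of 2199 genes were at least 1.5-fold higher in members and 11.9% lower. The lower ones are led by histone and mitosis genes (*Hist1h2ap*, *Nusap1*, *Ccna2*), and all 28 other proliferation genes tested were lower, as the limit on cycling genes selects. *Tnfrsf9* led the higher genes, at 740.3 against 210.0 CPM (188 to 234), a ratio of 1.82. *Mt1* (1.66), *Cd200* (1.34), *Irf7* (1.29), *Il7r* (1.16), *Isg15* (1.15) and *Izumo1r* (1.14) followed, and *Gzmb* had 1.10 and *Ikzf2* 0.83 (439 against 247 CPM). *Lrrc32* had 42.3 against 8.70 CPM from 59 and 14 UMIs. *Tnfrsf4* (3763 against 2895 CPM) and *Tnfrsf18* (1172, 1115 to 1230, against 811, 767 to 856) were also higher in members, by less than 1.5-fold. *Ctla4* (2028 against 2091 CPM), *Il2ra* (281 against 276), *Il10* (637 against 627) and *Lag3* (920.4 against 917) had ratios within 0.05 of 0.

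In the small intestine the same rule found 27 of 1320 non-cycling cells, 2.05% (1.35 to 2.96), with 129810 UMIs in all and a median of 4688 per cell. At equal depth 1.37% (0.784 to 2.21) of intestinal cells had a *Foxp3* UMI. Of the intestinal genes, 14.7% of 3127 genes with at least 200 UMIs were at least 1.5-fold higher in the intestinal Foxp3-positive than in the Foxp3-negative cells and 16.2% lower. Among the named genes that reached the same minimum in the intestine, 12 were at least 1.5-fold higher in splenic members, and of these 6 were also higher in the intestine, 2 were lower and the others lay between. Of 6 that were lower in splenic members, 5 were also lower in the intestine. *Tnfrsf9* had a ratio of 2.32 (1.97 to 2.66), *Ikzf2* 1.79 (1.25 to 2.28), *Capg* 2.79 and *Ccr2* 2.43 (1.96 to 2.87). *Il2ra*, below the minimum with 18 UMIs against 100, had 2.74 (1.93 to 3.48). *Il7r* had 2.16 (1.60 to 2.68), against 0.61 in spleen. The 2 that went the other way were *Gzmb*, at -0.74 (-0.83 to -0.65) in the intestine, and *Mt1*, with 1 UMI in the 27 cells against 307 in the others.

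Side by side, the splenic and intestinal Foxp3-positive cells had 740.3 and 624 CPM of *Tnfrsf9*, 439 and 277 of *Ikzf2*, 281 and 139 of *Il2ra*, and 637 and 732 of *Il10*. *Gzmb* had 1764 CPM in spleen and 7642 in the intestine, *Ccl5* 579 and 11039, *Gzma* 29.4 and 5200, and *Ccr9*, a gut-homing receptor, 17.9 and 539. *Irf8*, with 1332 UMIs in splenic and 11 in intestinal cells, and *Tnfrsf4* (3763 against 1417 CPM) were higher in spleen. *Areg* had 52.4 CPM in spleen and 269.6 in the intestine. The Foxp3-negative cells of the intestine are themselves rich in *Ccl5* and *Gzmb*, with 246647 and 61407 UMIs, and the part of RNA shed by them in the intestinal values was not tested.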

How the data were processed

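Droplet single cell RNA libraries (10x Genomics Chromium) were made from sorted splenic and small intestinal cells, 1 per tissue. The deposited values are UMI counts per gene and barcode, which the authors made by trimming with Trimmomatic, aligning to mm10 and counting with Cell Ranger, with no normalization and no filter on cells beyond barcode calling. The splenic library held 11103530 UMIs in 1738 barcodes (1599 to 30383 each), and 0 barcodes were shared with the other library. The strand of counting and the number of mice were not given in the sources used here.

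UMIs were summed over the cells of a group. CPM got exact Poisson, ratios exact binomial and shares exact Clopper-Pearson 95% intervals, which cover counting error only, and no p-value was computed because cells are not replicates. A gene was called at 1.5-fold if both groups together had at least 200 UMIs. The ratio step was tested on simulated Poisson counts without spread between cells. The thinning step was checked on splenic cells of the data, only for the total of UMIs left per cell. Doublets were not called or removed; leaving out cells more than 3 MAD above the median log UMI count was an alternative. Clusters came from leidenalg 0.10.2 on 1000 variable genes, 20 principal components and 15 neighbours, and pooled size factors from scran 1.30.0 (R 4.3.3). Python 3.11.15, numpy 2.4.6, scipy 1.17.1, scikit-learn 1.9.0 and matplotlib 3.10.9 were used.

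The members and gene lists were chosen with earlier results of these data known. The genes named are the Treg markers, a set list of activation, coinhibitory and memory genes, the 12 highest and 12 lowest ratios, up to 3 highest and 3 lowest members of each gene list and the 5 leading genes of each cluster. Genes below 200 UMIs, and leading genes of the comparisons with *Ccl5*-high, *Ikzf2*-positive, cycling and intestinal cells, were named after their values were seen. The alternatives covered the mitochondrial, *Foxp3* and cycling limits, thinning, scaling, the comparison cells and the UMI minimum. Gene positions are from GENCODE vM21. Some items are not reported here.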

Additional observations from a re-analysis of the deposited data

Results flagged for a closer look

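*Gzmb* went in opposite directions in the 2 tissues. Its log2 ratio of CPM, Foxp3-positive over Foxp3-negative non-cycling cells, was 1.03 (0.96 to 1.10) in the spleen and -0.74 (-0.83 to -0.65) in the small intestine, from 2459 and 992 UMIs in the Foxp3-positive cells. The difference between the tissues was not tested, since each tissue is 1 library. *Gzmb* UMIs are concentrated in few splenic cells, and against the *Ccl5*-high splenic cells the ratio was -0.78 (-0.86 to -0.70).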

How the results depend on the processing

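No paired analysis was possible because each tissue is 1 library with no replicate number, and for the same reason no library could be left out. The 207 Foxp3-positive cells became 93 with at least 2 *Foxp3* UMIs, 166 with under 2 cycling UMIs, 344 with no cycling limit, 117 with cells thinned to 2000 UMIs first and 56 without cells bearing any marker of another cell type. The 134 higher and 170 lower genes became 465 and 598 at a minimum of 50 UMIs, 51 and 73 at 500, 1761 and 1356 with no minimum, and 78 and 79 without cells with another type's marker. The lower genes became 113 after thinning, where 95 were higher, of 2028 tested. Fewer or more genes then reach the minimum, and the rest of the cause was not tested. No cell exceeded the limit for very high UMIs, so that alternative left every value as it was. Across 13 alternatives the ratio of *Ikzf2* ranged from 0.81 to 1.28, of *Il2ra* from 0.78 to 1.52 and of *Tnfrsf9* from 1.17 to 2.05. *Ccl5* reversed to 2.75 when the comparison cells with at least 5 of its UMIs were left out, which selects on *Ccl5* itself, and was -0.31 with such cells left out of both groups. Without the *Ccl5*-high comparison cells *Ccl3*, *Ccl4*, *Cxcr6*, *Gzma*, *Nkg7*, *Pdcd1*, *Nfatc1* and *Bcl2a1d* were no longer past 1.5-fold lower nor *Il7r* past 1.5-fold higher. Of 8 suppressive mediators 3 were then higher and 0 lower, beside 3.34% higher and 3.51% lower of all 3649 genes tested. Of the ratios of named genes, 22 of 44 left their intervals with thinning first and 20 of 45 without cells bearing another type's marker. With no cycling limit 15 of 46 did, and with at least 2 *Foxp3* UMIs 12 of 45. Under each other alternative run on 46 ratios, 10 or fewer did. Fewer ratios were followed elsewhere. With at least 2 against 0 *Ikzf2* UMIs 4 of 6 left their intervals, with at least 10 *Ccl5* UMIs 1 of 7, and with thinning to 3000 UMIs 1 of 3. The UMI minimum was followed by counts of genes only. *Icos*, *Havcr2*, *Tigit*, *Maf*, *Id2*, *Nrp1* and *Tgfb1* changed sign under at least 1 alternative and carry no direction here. Leaving out the comparison cells with an mRFP UMI, and leaving *Ccl5*-high cells out of both groups, were chosen after seeing the data. In members, 3 UMIs are 2.15 CPM. A gene below that counts as not detectable at this depth, so its exact ratio and rank are not read.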
